A study of Drosophila melanogaster with 3 samples.

Results

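The 38 genes described here are 20 regulators of mesoderm and muscle development and 18 muscle structural genes, out of 13945 protein-coding genes on the 6 chromosome arms of Drosophila melanogaster. They were picked by name, and each was scored by ChIP-seq summits, the highest points of peaks, inside the gene or up to 2 kb from either end. ChIP-seq sequences the DNA that comes down with a protein and so maps where that protein sits on chromatin. The protein was NK7.1, a homeobox transcription factor carrying eGFP at its C-terminus and pulled down through the GFP tag. All 3 libraries form 1 group, biological replicates 1, 2 and 3 of mixed-sex embryos aged 0 to 24 hours from 1 transgenic line, so every stage and tissue of the embryo is averaged. The labels do not give the promoter of the transgene, nor whether the endogenous NK7.1 gene was intact.

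In the fly embryo, Twist and Snail set the mesoderm apart from the ectoderm, and later factors such as Mef2 switch on muscle differentiation. T-box, forkhead and zinc-finger factors then divide the mesoderm into heart, gut muscle and body-wall muscle. Sarcomere genes encode the thick and thin filaments, the Z-disc and the giant elastic proteins that link them, and most of them rise late in embryogenesis.

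Of the 38 genes, 11 (28.9%) had a summit of the reproducible set, while 22.6% of all protein-coding genes had one. The reproducible set is the authors' list of 2475 peaks thresholded on agreement between replicates. Among the regulators 7 of 20 (35.0%) had a summit, namely Mef2, Doc1, Doc2, bin, org-1, Hand and zfh1. Among the structural genes 4 of 18 (22.2%) had one, namely Msp300, Zasp52, sls and TpnC47D. Each replicate on its own, cut to its own strongest 2475 peaks, gave 9, 12 and 11 genes in replicates 1, 2 and 3. That is 23.7%, 31.6% and 28.9% of the genes, beside 22.5%, 22.6% and 22.9% of all protein-coding genes in the same replicates. The mean was 28.1 ± 4.02% (SD, n = 3), against 22.7 ± 0.187% for all protein-coding genes. In the gene body alone 3 of the 38 genes (7.89%) had a reproducible summit, against 8.02% of all protein-coding genes, and without replicate 3, keeping peaks that both other replicates placed among their strongest 2475, the count was 7 (18.4%), against 16.4%. No test was made on the lists, because the genes were chosen with earlier results of these data known.

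All 3 replicates placed 9 of the 14 reproducible peaks at these genes among their strongest 2475. Sequences are shown for 5 of them, and not for those at Zasp52 and at Mef2 (pooled ranks 25, 909 and 995). The 5 sequences are read 5′ to 3′ on the plus strand of dm6 from the Release 6 genome. Capitals mark matches on either strand to TAATTA or TAATTG, cores bound by many homeodomains, and to the E-box CANNTG, the core bound by basic helix-loop-helix factors such as Twist. The Msp300, zfh1 and org-1 sequences are whole peaks, and those of sls and bin are the 101 bp centred on the summit.
Msp300, chr2L:5108079-5108235: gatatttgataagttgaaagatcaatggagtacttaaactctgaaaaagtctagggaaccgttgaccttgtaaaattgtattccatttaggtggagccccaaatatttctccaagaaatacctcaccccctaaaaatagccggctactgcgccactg
zfh1, chr3R:30781730-30781835: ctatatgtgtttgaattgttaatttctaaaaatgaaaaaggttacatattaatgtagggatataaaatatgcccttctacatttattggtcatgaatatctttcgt
org-1, chrX:8455344-8455520: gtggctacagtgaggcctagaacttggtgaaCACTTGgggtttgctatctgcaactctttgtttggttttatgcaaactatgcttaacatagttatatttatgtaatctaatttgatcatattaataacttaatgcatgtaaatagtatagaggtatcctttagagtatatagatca
sls, chr3L:2115826-2115926: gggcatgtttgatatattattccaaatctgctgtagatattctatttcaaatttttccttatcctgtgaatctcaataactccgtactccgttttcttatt
bin, chr3L:6989334-6989434: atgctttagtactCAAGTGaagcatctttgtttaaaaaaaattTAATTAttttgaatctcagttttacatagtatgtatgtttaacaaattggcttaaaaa
Of the 2 marked homeodomain words, only the bin sequence held one, a single TAATTA, and it also held the E-box CAAGTG. Other words that homeodomains bind were not searched for, so the unmarked sequences may hold some. The org-1 peak held 1 E-box, CACTTG, which was not wholly within 50 bp of its summit, and the other 3 sequences held none of the marked motifs. Among these 5 sequences GC content was lowest in the bin window, at 22.8%, followed by 25.5% in the zfh1 peak. It was highest in the Msp300 peak, at 40.1%. These sequences differ in length. Within 50 bp of the summit zfh1 and org-1 were equal, at 27.7%, and Msp300 was at 36.6%, with bin still lowest and Msp300 still highest.

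Mef2 encodes a MADS-box factor needed for muscle differentiation, and it had 4 reproducible summits, more than any of the other 37 genes. Only 67 of all protein-coding genes (0.480%), or 2.13% of those with a reproducible summit, had at least 4. Mef2 is also long, 45363 bp against a median of 2166 bp for all protein-coding genes. Its gene spans chr2R:9913496-9958858 on the minus strand. The strongest of the 4 peaks, at chr2R:9959733-9960095, had a pooled signal value of 755 and rank 25 in the pooled list. It ranked 29, 24 and 26 in replicates 1, 2 and 3, with signal values of 246, 227 and 279 on each replicate's own scale, so the 3 replicates placed it almost identically. Its summit lay 1072 bp upstream of the first Mef2 start site, but only 148 bp upstream of a start site of Pal1, a gene for a peptide-amidating enzyme. By annotation the summit lay in an intron or noncoding exon, and the gene Pdrg1 was also within 2 kb of it. Which of the genes the site serves was not tested.

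The other 3 Mef2 peaks lay inside the gene and had no other protein-coding gene within 2 kb of their summits. The peak at chr2R:9948976-9949395 had a signal value of 161 and ranked 1018, 1317 and 657 in replicates 1, 2 and 3. Its summit lay in an intron, 4422 bp upstream of an internal start site. The peak at chr2R:9942766-9943185 had a signal value of 153 and ranked 1258, 1215 and 1084, and its summit lay in an annotated 5′ UTR 1788 bp downstream of that start site. The weakest, at chr2R:9935801-9936220, had a signal value of 101 and reached the strongest 2475 of replicate 3 alone, with ranks of 3407, 3167 and 1488. The 3 internal peaks were thus far below the upstream one, and the remaining 13 pooled summits in the window had signal values of 27.6 to 83.3.

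**Figure D1:**
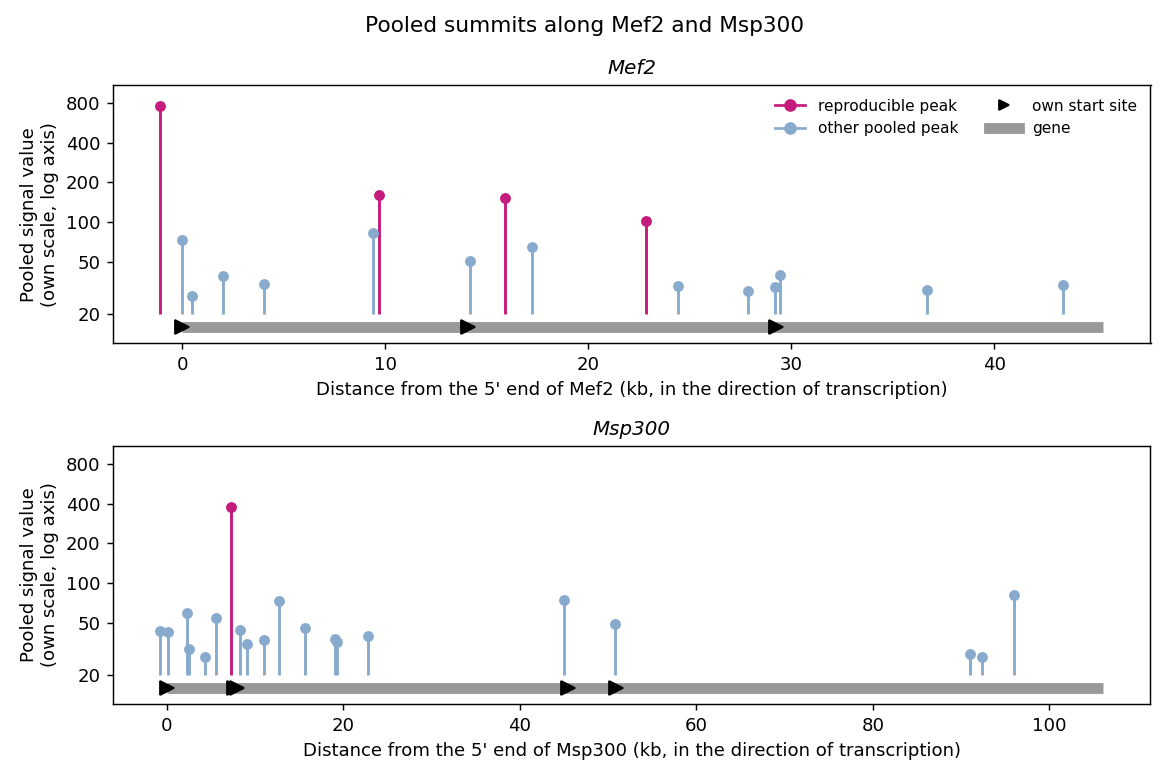
Pooled summits along Mef2 (top) and Msp300 (bottom), with the distance from the gene's 5′ end in kb on the horizontal axis and the pooled signal value, on the caller's own scale and a log axis, on the vertical axis. Magenta stems are reproducible peaks and blue stems other pooled peaks, arrowheads are own start sites and the grey bar is the gene; at Mef2 the peak of signal 755 stands upstream of the gene, and at Msp300 a single peak of 377 stands among 19 others of 27.4 to 80.9.

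Among the T-box genes, which encode DNA-binding factors used in the heart and dorsal mesoderm, org-1 and the Dorsocross genes Doc1 and Doc2 had a summit. The org-1 gene, the fly Tbx1 counterpart, had a peak of 177 bp at chrX:8455344-8455520 with a pooled signal value of 194. It ranked 849, 559 and 691 in replicates 1, 2 and 3, inside the strongest 2475 of each. Its summit lay 360 bp upstream of an org-1 start site, with the gene CG32713 also within 2 kb. The gene org-1 was the only regulator with a reproducible summit less than 1 kb from a start site of its own.

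At the Dorsocross cluster the replicates disagreed. Doc2 was counted through a peak at chr3L:9011806-9012225, signal value 124, which ranked 1084 and 941 in replicates 1 and 3 but 7362 in replicate 2. Doc1 was counted through a peak at chr3L:9045244-9045663, signal value 101, which ranked 1389 and 2346 in replicates 2 and 3 but 6024 in replicate 1. Neither peak lay at a Dorsocross start site. The Doc2 summit lay 670 bp beyond the 3′ end of Doc2, with the start site of CG5194 nearest at 2178 bp, and the Doc1 summit lay 412 bp beyond the 3′ end of Doc1, with the start site of the arginine kinase gene Argk2 nearest at 1985 bp. Doc3, the third gene of the cluster, had no pooled summit in its window, and its best ranks in the replicates were 22695, 9162 and 14915.

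The remaining 3 T-box genes had no reproducible summit. For mid and H15, neighbours that act in the heart, the best pooled ranks were 5435 and 8936, and for byn, the fly Brachyury needed for hindgut and its muscle, 9106. The mid summit lay 283 bp upstream of the mid start site and its signal value was 60.0, below the lowest value of the reproducible set, 92.5.

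The forkhead gene bin, which specifies visceral muscle, had a peak at chr3L:6989174-6989593 with a signal value of 161. It ranked 675, 879 and 1087 in replicates 1, 2 and 3, and the summit lay 1238 bp upstream of the only bin start site. The gene zfh1 encodes a zinc-finger and homeodomain factor of heart, blood and muscle precursors. Its peak, at chr3R:30781730-30781835, was 106 bp wide and had a signal value of 251, and it ranked 459, 215 and 519. The summit lay in an intron, 1504 bp upstream of the internal zfh1 start site. Both genes were inside the strongest 2475 in every replicate.

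Hand, a basic helix-loop-helix gene of heart and visceral mesoderm, had a pooled signal value close to that of Doc1. Its peak at chr2L:10292256-10292675 had a signal value of 102 and ranked 3712, 1675 and 5071 in replicates 1, 2 and 3, so only replicate 2 placed it among its strongest 2475. The summit lay 213 bp beyond the 3′ end of Hand and 101 bp upstream of a start site of Ufd4, a gene for a ubiquitin ligase.

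Neither of the early mesoderm determinants had a reproducible summit. For twi, the basic helix-loop-helix gene at the top of the mesoderm programme, the best pooled rank was 4105, with a signal value of 69.8. For any summit in its window the best ranks in replicates 1, 2 and 3 were 4684, 2447 and 5931. The replicate peaks over that pooled summit ranked 5568, 2447 and 14108. The annotated twi gene spans 62952 bp because 1 transcript starts far upstream, and the summit lay 17838 bp from the nearest twi start site, with the start site of CG9896 nearer at 4328 bp. For sna, a zinc-finger repressor, no pooled summit lay in the window. Replicate 3 alone listed one, at rank 14692.

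Of the other regulators without a reproducible summit, nau, the fly MyoD counterpart, came nearest to the threshold. Its best pooled peak had rank 2641 and a signal value of 88.8. For any summit in its window the best ranks were 2944, 13769 and 1654 in replicates 1, 2 and 3, so replicate 2 stood far below replicates 1 and 3. Over the pooled peak itself replicate 2 had rank 16028. The COE-family muscle identity gene kn had a best pooled rank of 6094, but replicate 3 placed a summit at rank 1071 in its window where replicates 1 and 2 had 4317 and 4015 at best. For vg and sd, whose products act together as a cofactor and a TEAD-family DNA-binding factor, the best pooled ranks were 4817 and 6955, 131 bp and 702 bp from own start sites. For eya and Six4, whose products also work as partners, they were 5711 and 9546. Poxm, a paired-box gene of muscle founders, had 10281. Across the 11 regulators with a pooled but no reproducible summit, signal values ran from 43.4 to 88.8.

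**Figure D2:**
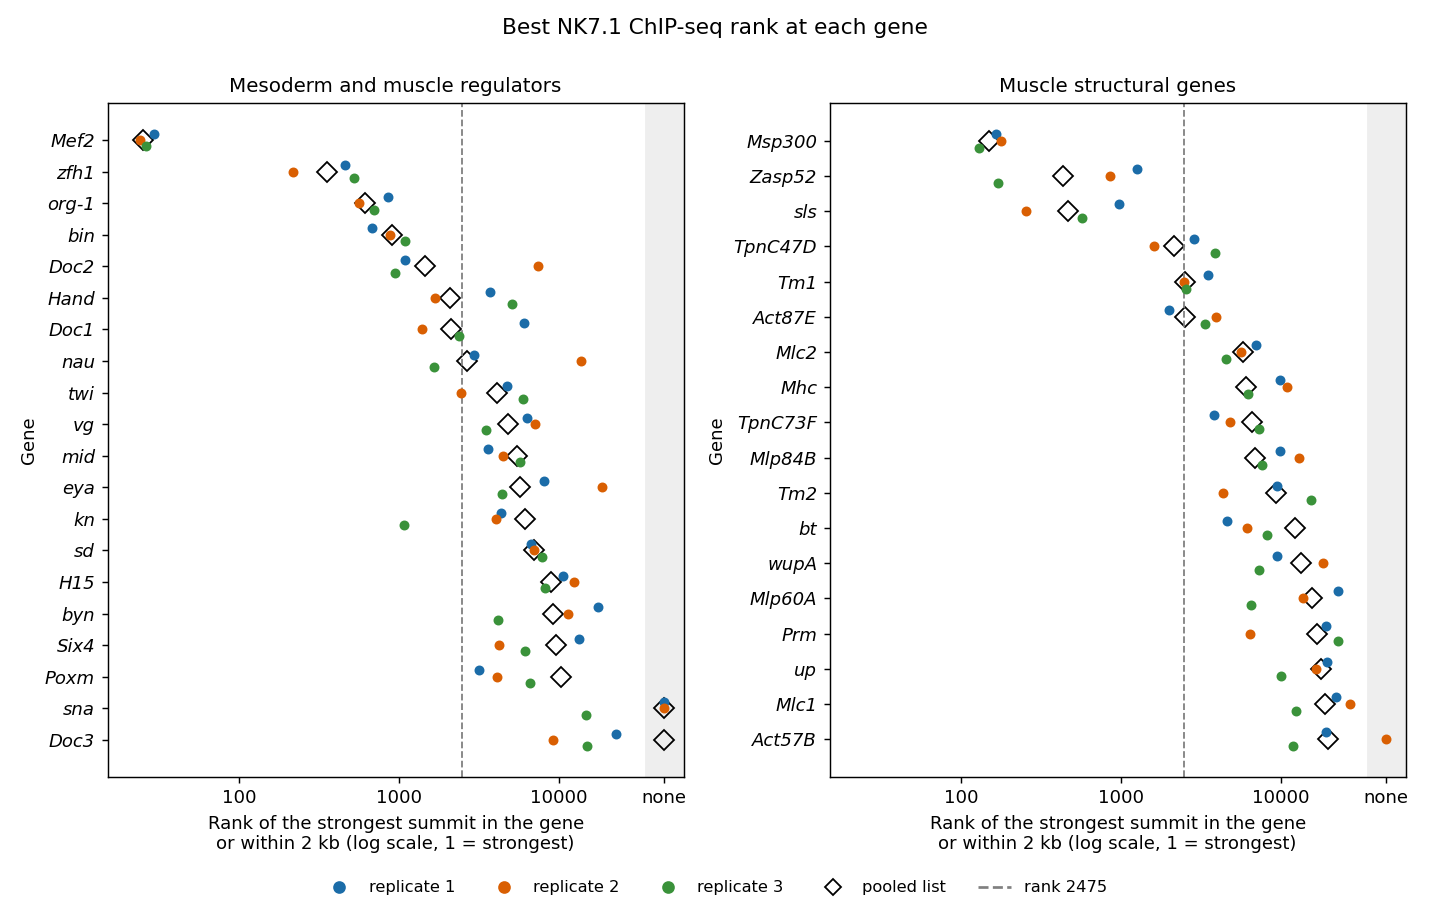
Best rank of any summit in each gene or within 2 kb, on a log axis where 1 is the strongest peak of a list, for 20 regulators (left) and 18 structural genes (right), sorted by pooled rank. Dots are replicates 1 to 3, diamonds the pooled list, the dashed line rank 2475, and the grey band marks genes with no summit in a list; Mef2 and Msp300 have tight ranks far left of the line, whereas Doc2, nau and kn have 1 replicate far from the other two.

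Among the structural genes the highest signal was at Msp300, which encodes a nesprin-like giant protein that anchors muscle nuclei to the cytoskeleton. Its peak, chr2L:5108079-5108235, was 157 bp wide and had a signal value of 377 and pooled rank 149. It ranked 164, 177 and 128 in replicates 1, 2 and 3, with signal values of 127, 105 and 146 on the replicates' own scales. The gene is 106126 bp long and has 5 start sites, and the summit lay in an intron of the longer transcripts, 367 bp upstream of the second start site. The other 19 pooled summits in the Msp300 window had pooled ranks of 3143 or beyond.

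The sls gene encodes the titin-like proteins Sallimus and kettin, which give the sarcomere its elasticity. Its only reproducible peak, chr3L:2115666-2116085, had a signal value of 223, and the summit lay 265 bp upstream of its single annotated start site. Ranks were 973, 253 and 569 in replicates 1, 2 and 3. The same peak also lay within 2 kb of the 3′ end of zormin, a neighbouring gene for another titin-like protein. Zasp52 encodes a PDZ and LIM protein of the Z-disc. Its peak, chr2R:15762242-15762661, had a signal value of 231, but its ranks were uneven, 1248 and 852 in replicates 1 and 2 against 170 in replicate 3. The summit lay 113 bp beyond the 3′ end of the gene and 13610 bp from the nearest Zasp52 start site, with the gene CG30089 also within 2 kb.

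TpnC47D, which encodes a troponin C, was the weakest of the 4. Its peak at chr2R:11275785-11276204 had a signal value of 101 and ranked 2842, 1599 and 3851, so only replicate 2 placed it among its strongest 2475. The summit lay 709 bp upstream of the TpnC47D start site and also within 2 kb of the cuticle gene Cpr47Eg.

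The other 14 structural genes had no reproducible summit. For Mhc, the only muscle myosin heavy chain gene of the fly, the best pooled rank was 6050, and for the myosin light chain genes Mlc1 and Mlc2 it was 18783 and 5761. The actin genes Act57B and Act87E had 19580 and 2507, and the tropomyosin genes Tm1 and Tm2 had 2490 and 9233. The troponin T gene up had 17817, the troponin I gene wupA 13361 and the troponin C gene TpnC73F 6596. Of the giant and thick-filament proteins, projectin (bt) had 12251 and paramyosin (Prm) 16690. The muscle LIM protein genes Mlp60A and Mlp84B had 15704 and 6861. In 4 of these 14 genes, Mhc, Mlc2, Mlp60A and Mlp84B, the best pooled summit lay in a coding exon. The matching share over all protein-coding genes is not given, so this count is a description only.

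Several genes sat close to the threshold of the reproducible set. TpnC47D, Doc1 and Hand were just inside, at pooled ranks 2123, 2113 and 2081. Tm1, Act87E and nau were just outside, at ranks 2490, 2507 and 2641 with signal values of 92.3, 92.1 and 88.8. The Tm1 summit lay 11 bp from a Tm1 start site, in the 5′ UTR, and the replicate peaks over it had ranks of 4588 (replicate 1), 2457 (replicate 2) and 2525 (replicate 3). At the 3000 strongest pooled peaks 14 of the 38 genes (36.8%) had a summit, against 25.9% of all protein-coding genes, and at the 1000 strongest 7 (18.4%) had one, against 10.9%. In the whole pooled list 36 of 38 (94.7%) had a summit, against 79.8% of all protein-coding genes, so a summit there says little. Median best ranks were taken over all genes, with a gene without a pooled summit placed after the last peak. They were 5126 for regulators and 6728.5 for structural genes, against 8443 for all protein-coding genes. Genes without a pooled summit, which raise such a median, were 2 of 20 regulators, 0 of 18 structural genes and 2821 of 13945 protein-coding genes. Medians among genes with a summit only were not taken.

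**Figure D3:**
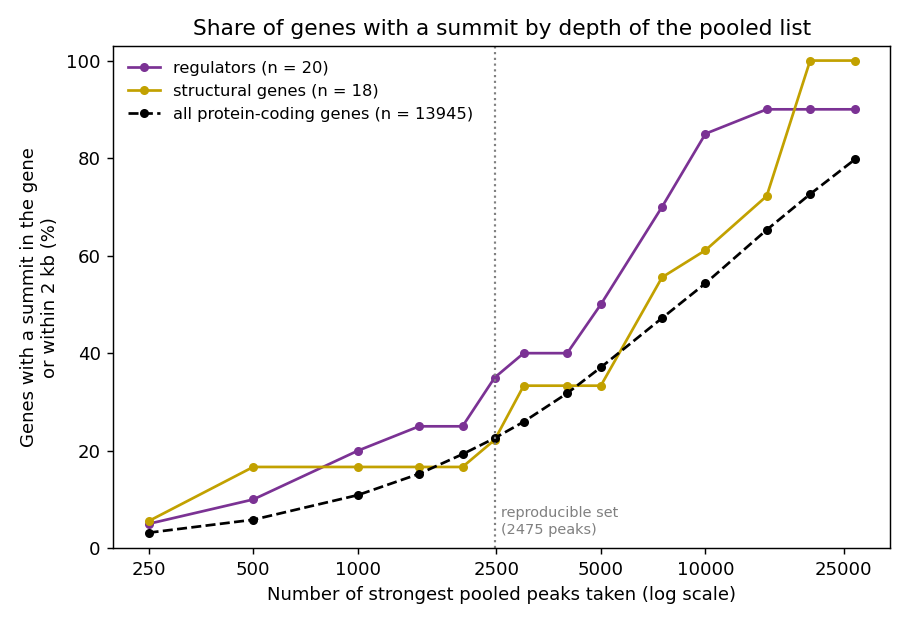
Share of genes with a summit in the gene or within 2 kb (vertical axis, %) as more of the strongest pooled peaks are taken (horizontal axis, log scale). Purple is the 20 regulators, yellow the 18 structural genes and the black dashed line all 13945 protein-coding genes; at 2475 peaks, the dotted line, the shares are 35.0%, 22.2% and 22.6%.

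Gene length bears on these counts, because a long gene offers more room for a summit. The 38 genes had a median length of 7803 bp, against 2166 bp for all protein-coding genes. Of the 17 genes of 10 kb or longer, 5 (29.4%) had a reproducible summit, against 41.4% of all protein-coding genes of that length. Of the 21 shorter genes, 6 (28.6%) had one, against 19.5%. The 5 short regulators among these 6 were Doc1, Doc2, bin, org-1 and Hand, and the only short structural gene was TpnC47D. Per window length, the regulators held 2.61 reproducible summits per 100 kb and the structural genes 0.848, beside 2.22 around all protein-coding genes. Of the pooled summits in the windows, 10 of 109 (9.17%) at regulators and 4 of 111 (3.60%) at structural genes were reproducible, beside 9.53% around all protein-coding genes. Mef2 alone gave 4 of the 10.

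Few of the summits lay at the genes' own starts. Within 1 kb of an own start site, 4 of 38 genes (10.5%) had a reproducible summit, against 13.9% of all protein-coding genes. These were org-1, sls, TpnC47D and Msp300. Of the 14 peaks, 5 lay inside the gene, 5 upstream of its 5′ end and 4 beyond its 3′ end, the last at Doc1, Doc2, Hand and Zasp52. For 4 of the 11 genes (36.4%), Mef2, Doc1, Doc2 and Hand, the strongest summit was nearest to the start site of another gene. Among all protein-coding genes with a reproducible summit this share was 53.4%. Among peaks supported by both remaining replicates the 4 genes became 2, 2 and 1 when replicate 1, 2 or 3 was left out. The 11 genes with a summit fell as well, to 8, 8 and 7. The share over all protein-coding genes under these settings is not given. Counting every start site in the annotation, 6 of the 14 summits (42.9%) lay within 1 kb of one, against 65.6% of all reproducible summits. By annotation 8 of the 14 summits (57.1%) were intergenic, 5 (35.7%) lay in introns or noncoding exons and 1 (7.14%) in a 5′ UTR, against 36.0%, 50.1% and 12.1% of all reproducible summits. The peaks of zfh1, Msp300 and org-1 were narrow, so that 3 of 14 (21.4%) were at most 180 bp wide, against 5.66% of all reproducible peaks, a limit set after the widths were seen.

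**Figure D4:**
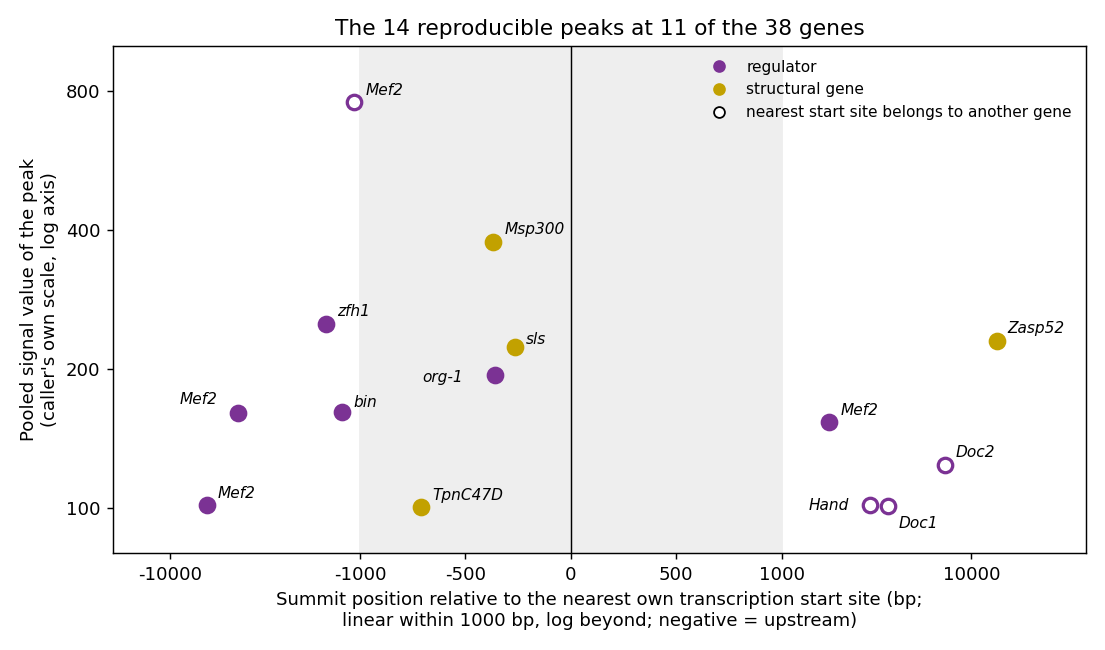
The 14 reproducible peaks at 11 genes, by summit position relative to the nearest own start site (horizontal axis, bp, linear within 1000 bp and log beyond, negative upstream) and pooled signal value (vertical axis, caller's own scale, log). Purple is regulators, yellow structural genes, and open circles are peaks whose nearest start site belongs to another gene; the 4 peaks inside the grey band of 1000 bp are those of Msp300, sls, org-1 and TpnC47D, with signal values of 377, 223, 194 and 101.

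Replicate support was full for the 9 peaks at pooled rank 995 or better and partial for the 5 weaker ones. All 3 replicates placed a peak among their strongest 2475 over 9 of the 14 peaks (64.3%), against 57.7% of all reproducible peaks, and 2 replicates did so for 2 peaks and 1 replicate for 3. At the level of genes, 7 of 38 (18.4%) had a summit among the strongest 2475 of every replicate, against 15.2% of all protein-coding genes. These 7 were Mef2, bin, org-1, zfh1, sls, Zasp52 and Msp300. A further 5 genes, twi, nau, kn, Act87E and Tm1, had such a summit in 1 replicate and none in the reproducible set. For 22 genes no replicate had one. The matching shares of all protein-coding genes are not given for these last counts, so they only describe the 38 genes.

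The sequence at the 14 summits was AT-rich, like the reproducible set as a whole. The median GC content within 50 bp of the summit was 33.7%, against 35.6% for all reproducible summits and 44.6% for pooled summits outside the set. It ran from 22.8% at bin to 57.4% at the Mef2 peak in the 5′ UTR. Taking each replicate's own strongest 2475 peaks, the median at these genes was 35.5 ± 1.59% (SD, n = 3). In the same windows TAATTA was found at 1 of 14 summits, the one at bin, against 6.95% of all reproducible summits. TAATTG was found at 0 of 14, against 9.49%. Any E-box, CANNTG, was found at 5 of 14 (35.7%), against 38.4%, at bin, Hand and the 3 internal Mef2 peaks. The E-boxes CACATG and CATATG, bound by Twist, the MEF2-type words TATTTATA and TATTTTTA, and the GAGA-factor core GAGAG were found at 0 of 14, against 3.39%, 4.32%, 2.14%, 4.0% and 11.8% of all reproducible summits. GATAA, the GATA-factor core, was found at 3 of 14 (21.4%), at sls, Zasp52 and the upstream Mef2 peak, against 24.0%. All motifs were read on both strands, and CANNTG also matches CACATG and CATATG. With 14 windows these counts are descriptions only.

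Other genes of the mesoderm and muscle programmes were counted by the same rule. Of 16 genes of myoblast fusion and mesodermal signalling, 7 (43.8%) had a reproducible summit, against the 22.6% of all protein-coding genes, among them kirre, a founder-cell adhesion gene, with 10 summits and a highest signal value of 240. Of 23 further genes of muscle structure and attachment, 9 (39.1%) had one, with the highest signal value, 485, at stck, which encodes an integrin adapter, and with zormin counted through the sls peak. In 5 of these 9, zormin, Actn, parvin, mys and if, the strongest peak was nearest to a start site of another gene, as it was for stumps among the 7 genes of fusion and signalling. Of 10 homeobox genes of muscle identity only tup had one, with a signal value of 173, and its nearest start site, 122 bp away, was that of CG10602. These added lists were not split by gene length, and among all protein-coding genes of 10 kb or longer 41.4% had a reproducible summit.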

How the data were processed

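ChIP-seq had been run on 3 biological replicates of whole embryos expressing NK7.1-eGFP, per the labels. The files the authors deposited are narrowPeak lists on dm6, called for each replicate (25801, 30000 and 30000 peaks) and on the pooled alignments (26951 peaks), each against a control, per the text listings of the libraries. By their output type the replicate and pooled lists hold peaks and background. From them the authors derived the reproducible set of 2475 peaks by the irreproducible discovery rate, per the same listings, and it equals the 2475 strongest pooled peaks. Neither peak caller nor aligner is given in the sources used here. Each deposited signal value is a score on the caller's own scale, and it was used to rank peaks within a list. The deposited −log10 q-value was capped and was not used. Read counts are not in the lists, so depth is unknown. The dm3 lists and any untagged or input library were not analysed here, so the signal that an anti-GFP precipitation gives without the tag was not tested.

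Gene models were those of Ensembl 115 on the same Release 6 assembly, matching all 38 symbols. A gene counted when a summit lay in it or within 2 kb. Support by a replicate meant an overlap of at least 1 bp with one of its strongest 2475 peaks. Regions were classed by 5′ UTR, coding exon, 3′ UTR, intron or noncoding exon, and intergenic sequence. The window rule was checked on planted summits. Python 3.11.15, NumPy 2.4.6 and Matplotlib 3.10.9 were used. By the naming rule all 38 genes are given, those with a reproducible summit with each peak and the others with their best pooled rank. The genes, the added lists and the motifs were chosen with earlier results of these data known, and no p-value is given. Alternatives were other windows, stricter lists and leaving out each replicate. The split by gene length was added after the data were seen.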

Additional observations from a re-analysis of the deposited data

How the results depend on the processing

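The count of 11 genes was 10 (26.3%) with a window of 1 kb, against 18.6% of all protein-coding genes. With 5 kb it was 16 (42.1%), against 32.9%. When whole peaks were overlapped with the window it was 11 (28.9%), against 23.3%. It was 3 in the gene body alone (2 regulators, 1 structural gene), where 8.02% of all protein-coding genes had a summit. For the 1237 strongest peaks it was 7 (18.4%, 4 regulators), against 13.1%. For peaks supported by all 3 replicates it was also 7 (4 regulators), against 14.3%. Without a replicate in turn, keeping peaks supported by both others, it was 7 to 8, with 4 to 5 regulators and 3 structural genes. The lowest came without replicate 3. These shares were 18.4 to 21.1%, against 16.1 to 16.4% of all protein-coding genes. Doc1 and Doc2 were both lost without replicate 3, Doc2 without replicate 1 and Doc1 without replicate 2, and Hand and TpnC47D were lost without any one of the 3. The count of genes with a summit near an own start site was 4 within 1 kb and 7 within 2 kb. Within 1 kb, leaving out a replicate gave 3 each time. Shares of all protein-coding genes under these changed settings are not given. The mean over replicates, 10.7 genes, was 7.67 with 1237 peaks, 18.7 with the doubled number and 37.0 with full lists, and 10 to 11.5 without a replicate. All protein-coding genes also rise with depth. In the pooled list their share was 22.6% at 2475 peaks, 37.1% at 5000 and 79.8% in full. Their shares in the replicates at these other depths are not given. The count of genes nearest to another gene's start was 1 to 2 without a replicate, among the 7 to 8 genes then counted. Median GC was 29.4% within 25 bp and 36.3% within 100 bp, and 31.2 to 34.2% without a replicate. Under windows of 0, 1 and 5 kb the strongest signal could not be given in 9 cases because the gene had no summit. Of the other 24 values, which a peak that stays in the window keeps by construction, 22 were unchanged and both others were Mef2, 161 without the upstream peak. No paired analysis was possible because there is 1 group. Unknown depth limits any reading of weak peaks.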
